A study of Homo sapiens with 4 samples.

Results

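The genes described here are 33 canonical transcriptional targets of wild-type p53, taken by symbol from a list of textbook targets, and measured in SK-BR-3. This established line comes from a human breast cancer, has amplified HER2 and carries missense-mutant p53. Each gene was represented by its brightest probe set among those annotated to that gene alone, judged by log2 signal averaged over the 4 arrays. Such a probe set existed for 30 of the 33 genes, out of 19775 genes on the array. BBC3, which encodes the BH3-only protein PUMA, had a probe set shared with other genes, and BTG2 and FDXR had none listed, so these 3 were not analysed here. SPATA18 and EDA2R had mean signals of 2.03 and 15.0, below the filter of 15.3 (the median of all probe sets), and are set apart. The 28 genes kept stood among 12066 kept on the array. Of these 28, 18 were bright, with a mean signal of at least 110.3.

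Expression was measured on 4 Affymetrix arrays, 1 per group, so no group had a replicate, and arrays rather than read depth limit the precision. The groups were cells with p53 shRNA and Pontin siRNA together, cells with p53 shRNA in the sicon arm, cells with Pontin siRNA on the control shRNA background, and cells with control shRNA in the sicon arm. All had been selected with puromycin for the shRNA vector, for which the control is labelled control shRNA in one place and empty vector in another, and all were collected 24 h after siRNA transfection. The labels do not spell out sicon, give no siRNA or shRNA sequence, and do not say whether each shRNA population was 1 clone. The design allows the depletion of mutant p53, of Pontin and of both to be compared. For these 33 genes it bears on whether targets of the wild-type protein differ when the mutant protein is depleted.

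Wild-type p53 is a tetrameric transcription factor that is stabilised after DNA damage and other stress. It binds paired response elements near its target genes and raises genes of cell cycle arrest, apoptosis, DNA repair and metabolic restraint. Missense mutants of the DNA-binding domain mostly lose this sequence-specific activity, while the mutant protein often accumulates in breast tumours and can act through other transcription factors. RUVBL1 encodes Pontin, an AAA+ ATPase found in the INO80, SRCAP and TIP60 chromatin complexes which has been reported as a partner of mutant p53.

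RUVBL1, the target of the siRNA, had signals of 65.8 in cells with both knockdowns and 398.2 with p53 shRNA alone, 6.05-fold lower, and of 127.4 with Pontin siRNA and 477.7 with control shRNA, 3.75-fold lower. The transcript targeted by the p53 shRNA was not analysed here, so the depth of that knockdown is not known from these values. The luminal and HER2 markers ERBB2, GRB7, STARD3, KRT8, KRT18, KRT19 and EPCAM were bright, while CDH1, the E-cadherin gene, was below the filter. ESR1, PGR, KRT14, VIM, PTPRC and CD3E were below the filter as well, KRT5 and PECAM1 had signals of 10.1 to 40.7, and only COL1A1 (152.9 to 175.9) of the markers for other cells was bright. Log2 signals of the 12066 genes kept correlated between any pair of arrays at 0.981 to 0.988. Probe sets had a median signal of 19.6 with both knockdowns and between 15.9 and 16.5 on the other arrays. On the array with both knockdowns the 18 hybridization control probe sets were also 1.42 times as bright as with control shRNA, and the part of this array difference in the results was not tested. In these bulk samples fewer expressing cells and less RNA per cell cannot be told apart.

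Each knockdown gave 2 ratios that used separate arrays. With p53 shRNA the ratios were both knockdowns over Pontin siRNA, called here the ratio with Pontin siRNA, and p53 shRNA over control shRNA, the ratio without it. With Pontin siRNA they were both knockdowns over p53 shRNA, called the ratio in p53 shRNA cells, and Pontin siRNA over control shRNA, the ratio in control shRNA cells. A call required the 2 ratios to point one way and each to reach 1.5-fold, a log2 size of 0.585. The p53 and Pontin ratios share arrays with each other, so values for the 2 knockdowns are given side by side and not as support for one another. RUVBL1 itself had p53 log2 ratios of -0.95 with Pontin siRNA and -0.26 without it. The arrays of a p53 pair thus also differed in Pontin transcript, more so in the pair with Pontin siRNA.

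CDKN1A and ZMAT3 were the members with the highest mean p53 ratio and the highest mean Pontin ratio, and ZMAT3 had the second lowest mean p53 ratio, so their upstream sequences are shown. Promoter sequences came from RefSeq (GRCh38.p14) for 28 of the 33 genes, not the same 28 as those kept. CDKN1A, the gene of the cyclin-dependent kinase inhibitor p21, starts on the plus strand of chromosome 6, and the 250 bases before its start lie at chr6:36678464-36678713. ZMAT3, the gene of a zinc finger RNA-binding protein that wild-type p53 induces, lies on the minus strand of chromosome 3, with the 250 bases before its start at chr3:179069343-179069592. Both sequences are given 5′ to 3′ along the gene, and capitals mark the GC box GGGCGG on either strand, which occurs 4 times before CDKN1A, with a pair overlapping by 1 base, and not in the ZMAT3 window.
CDKN1A: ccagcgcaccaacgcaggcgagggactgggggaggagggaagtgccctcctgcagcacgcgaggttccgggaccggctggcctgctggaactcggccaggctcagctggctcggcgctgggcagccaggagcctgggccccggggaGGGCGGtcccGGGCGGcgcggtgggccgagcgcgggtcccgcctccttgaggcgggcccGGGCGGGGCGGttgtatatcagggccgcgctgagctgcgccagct
ZMAT3: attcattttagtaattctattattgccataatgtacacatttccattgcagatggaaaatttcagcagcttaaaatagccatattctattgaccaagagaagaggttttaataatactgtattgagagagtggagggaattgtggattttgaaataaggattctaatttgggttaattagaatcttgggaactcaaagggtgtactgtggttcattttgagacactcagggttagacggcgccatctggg

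The ZMAT3 window was the least GC-rich of the 28, at 36.0% against a median of 65.8% and a highest value of 77.2%. The p53 response element, a pair of 10-base sites apart by 0 to 13 bases, was searched on both strands of the 250 bases before and 50 after each start. With at most 2 mismatches in its 20 letters it was found in 2 of 28 member promoters (7.14%), against 7.89% of 27305 promoters and 6.75% of 15843 protein-coding ones. The matches lay before AEN and CCNG1 and are shown because they are the closest to the element among the members, with the paired sites in capitals and the spacer in lower case.
AEN: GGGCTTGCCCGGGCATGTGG
CCNG1: GAAAATGCCCccttctcgcGAGAAAGCCC
They lie at chr15:88621306-88621325 and chr5:163437529-163437557, on the plus strands of their genes. The GC box was in 22 of 28 member promoters (78.6%) and in 57.4% of protein-coding ones, the box CCAAT in 12 (42.9%) against 36%, and TATAAA in 0 against 9.91%. Many known p53 elements lie outside this window, and a match here is a description of letters, not a binding site.

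No member passed the call with p53 shRNA. Of the 28 genes kept 0 were called, against 2.25% of all genes kept (271 of 12066, with 1.38% higher and 0.862% lower), and of the 18 bright members 0, against 0.633% of bright genes (0.22% higher and 0.413% lower). The mean of the pairs was above 0 for 13 members and below 0 for 15. The median over members was -0.0063, beside -0.0024 over all genes kept. The median size of the mean ratio regardless of sign was 0.15 for members and 0.13 for all genes kept. In both pairs 9 members lay above 0 (32.1%, against 30.6% of genes kept) and 10 below (35.7%, against 32.2%), and the other 9 had opposite signs in the pairs (32.1%, against 36.7%). Taken singly, the ratio with Pontin siRNA reached 1.5-fold for PHLDA3 alone (1 of 28, against 9.78% of genes kept). The ratio without it did so for CDKN1A, PMAIP1, FAS and ZMAT3 (4 of 28, against 8.79%).

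**Figure D1:**
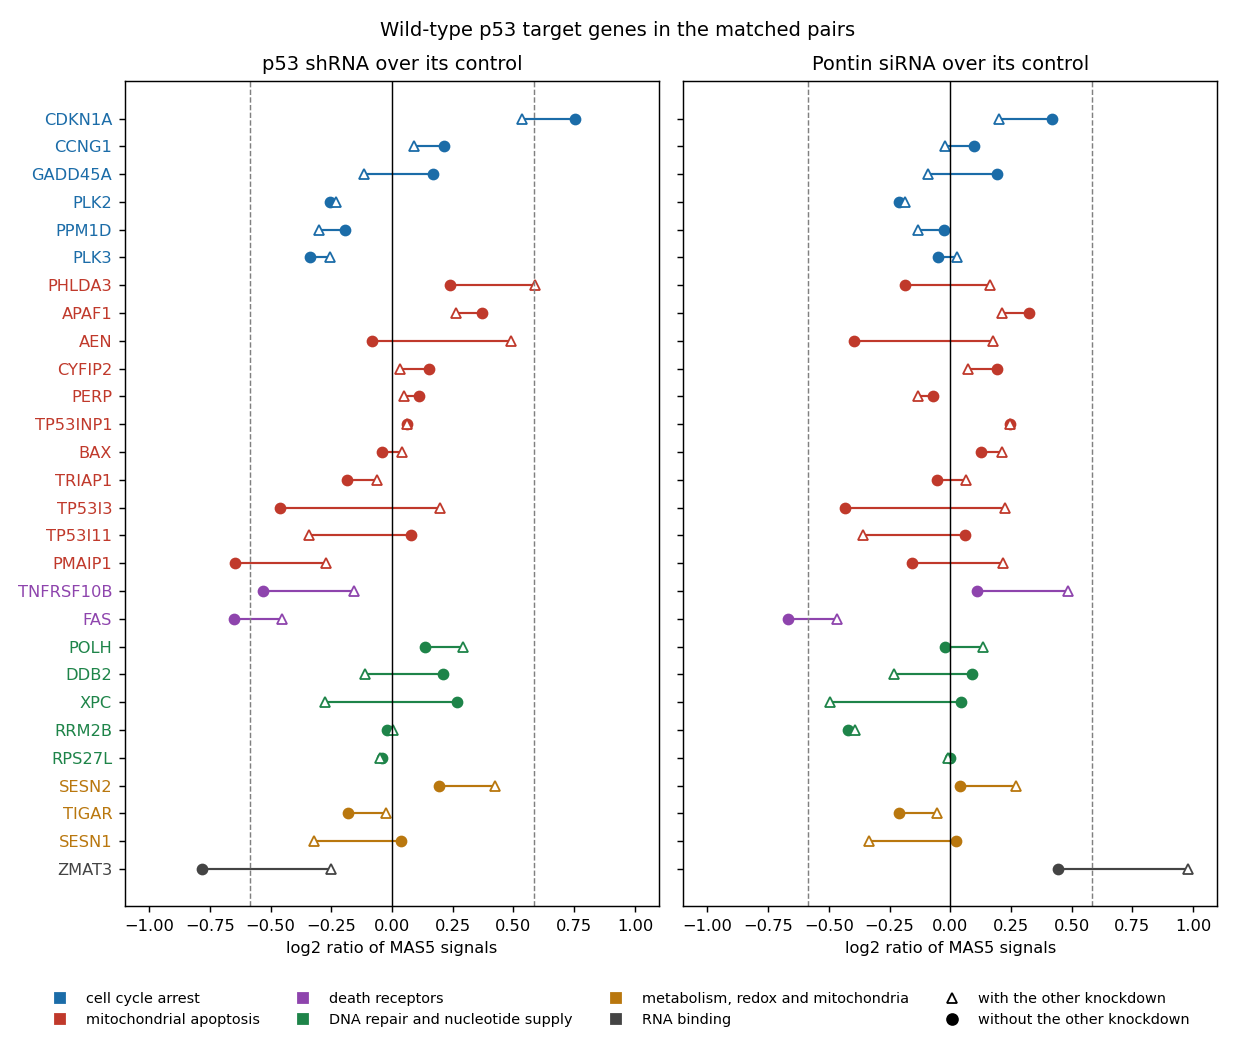
Log2 ratio of MAS5 signals (x axis) for the 28 members kept (rows, coloured by role), with p53 shRNA in the left panel and Pontin siRNA in the right. Triangles are the pair with the other knockdown and circles the pair without it, dashed lines mark 1.5-fold in either direction, and no member has both symbols beyond the same dashed line.

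Among the genes of cell cycle arrest, CDKN1A had higher signals with p53 shRNA than without it. Its signal was 104.5 with both knockdowns, 90.8 with p53 shRNA and 72.1 with Pontin siRNA, against 53.9 with control shRNA. Both arrays with p53 shRNA thus lay above both without it. The p53 log2 ratio was 0.54 with Pontin siRNA and 0.75 without it, so 1 pair passed 1.5-fold and the other missed it. CDKN1A was the only member above 1.3-fold (0.38 in log2) in both pairs, where 3.62% of genes kept were (6.03% in either direction). It has a single named probe set, of the type that can detect several transcripts, so it could not be checked on another one.

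The other arrest genes lay closer to 0. CCNG1, a cyclin gene of the p53 feedback loop, had signals of 1359 with both knockdowns, 1381 with p53 shRNA and 1275 with Pontin siRNA, against 1190 with control shRNA, and p53 log2 ratios of 0.09 with and 0.21 without Pontin siRNA. GADD45A, a stress sensor of growth arrest, had signals of 377.8 with both knockdowns, 402.7 with p53 shRNA and 409.5 with Pontin siRNA, against 358.5 with control shRNA. Its p53 ratios had opposite signs, -0.12 with and 0.17 without Pontin siRNA. The polo-like kinase genes PLK2 (-0.23 with and -0.26 without) and PLK3 (-0.25 and -0.34) and PPM1D (-0.30 and -0.20), the gene of the phosphatase WIP1 that switches p53 signalling off, lay below 0 in both pairs on their brightest probe sets. PLK3 had 2 other probe sets above the filter, at 0.49 and 0.86 and at 0.83 and -0.89, so its probe sets disagreed. Of the 6 arrest genes kept, the median of the mean p53 ratios was -0.11, from -0.29 for PLK3 to 0.64 for CDKN1A.

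Genes grouped here under the role of mitochondrial apoptosis had p53 ratios of either sign, from -0.65 for PMAIP1 to 0.59 for PHLDA3 in single pairs. This role was drawn broadly and takes in genes with other functions, such as PHLDA3 and CYFIP2. BAX, whose protein forms pores in the outer mitochondrial membrane, had signals of 241.6 with both knockdowns, 208.6 with p53 shRNA and 234.6 with Pontin siRNA, against 214.8 with control shRNA, and p53 ratios of 0.04 with and -0.04 without Pontin siRNA. PMAIP1, which encodes the BH3-only protein NOXA, had signals of 111.6 with both, 95.9 with p53 shRNA and 134.7 with Pontin siRNA, against 150.3 with control shRNA. Both arrays with p53 shRNA lay below both without it, with log2 ratios of -0.27 with and -0.65 without Pontin siRNA, but its other probe set gave 0.23 and -0.03. APAF1, the scaffold gene of the apoptosome, had signals of 186.5 with both, 160.9 with p53 shRNA and 155.4 with Pontin siRNA, against 124.3 with control shRNA. Its p53 ratios were 0.26 with and 0.37 without Pontin siRNA on that probe set, -0.72 and -0.06 on another above the filter, and its mean over probe sets was -0.030. The APAF1 value thus rests on 1 probe set.

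PHLDA3, whose product restrains AKT signalling, had signals of 73.0 with both knockdowns, 65.1 with p53 shRNA and 48.5 with Pontin siRNA, against 55.2 with control shRNA. Its p53 ratios were 0.59 with and 0.24 without Pontin siRNA, and its second probe set gave 0.12 and 0.02. PERP, a gene of a tetraspan membrane protein of desmosomes and apoptosis, had p53 ratios of 0.05 with and 0.11 without Pontin siRNA on a probe set with signals from 3037 to 3446, and TP53INP1, a stress-induced autophagy and apoptosis gene, had 0.06 in each pair. TRIAP1, which encodes a mitochondrial survival factor, was at -0.06 with and -0.18 without, and CYFIP2, a subunit gene of the WAVE actin regulator, at 0.03 and 0.15 and, on its other probe set, at -0.20 and 0.03. AEN, an apoptosis-enhancing nuclease gene, was at 0.49 with and -0.08 without, and TP53I11 at -0.34 and 0.08. TP53I11 had low signals, from 22.4 to 28.7, and its other probe sets, below the filter, differed in sign from each other. TP53I3, a quinone oxidoreductase gene, had signals of 78.5 with both, 67.1 with p53 shRNA and 68.5 with Pontin siRNA, against 92.4 with control shRNA, and p53 ratios of 0.20 with and -0.46 without Pontin siRNA. Over the 11 genes kept of this role, the median of the mean p53 ratios was 0.061, from -0.46 for PMAIP1 to 0.41 for PHLDA3.

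Both death receptor genes kept were lower on the p53 shRNA array of each pair, short of the call. FAS had signals of 12.8 with both knockdowns, 17.7 with p53 shRNA and 17.5 with Pontin siRNA, against 27.8 with control shRNA, close to the filter. Its p53 ratios were -0.45 with and -0.65 without Pontin siRNA. FAS was the only member more than 1.3-fold lower in both pairs, where 2.41% of genes kept were. It was called lower for both knockdowns after quantile normalization, cyclic loess normalization and median centring of the arrays. Of its 4 other probe sets, all below the filter, 1 was below 0 in both p53 pairs and 3 changed sign. TNFRSF10B, which encodes the TRAIL receptor DR5, had signals of 508.3 with both, 363.6 with p53 shRNA and 566.9 with Pontin siRNA, against 525.5 with control shRNA, and p53 ratios of -0.16 with and -0.53 without Pontin siRNA. Its 2 other probe sets above the filter gave -0.04 and -0.32 on one and opposite signs on the other. EDA2R, below the filter, had signals of at most 18.8.

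On their brightest probe sets, DNA repair genes had p53 log2 ratios from -0.27 to 0.29 in single pairs. XPC and DDB2 encode damage sensors of nucleotide excision repair. XPC had signals of 183.2 with both knockdowns, 258.1 with p53 shRNA and 221.6 with Pontin siRNA, against 214.6 with control shRNA, so its p53 ratios were -0.27 with and 0.27 without Pontin siRNA. DDB2 had signals of 52.4 with both, 61.5 with p53 shRNA and 56.6 with Pontin siRNA, against 53.2 with control shRNA, with ratios of -0.11 and 0.21. RRM2B, the p53-inducible ribonucleotide reductase subunit gene, was at 0.0047 and -0.022, and RPS27L, a ribosomal protein paralog gene, at -0.05 and -0.04. The other probe sets of RPS27L, both above the filter, changed sign between the pairs, at 0.08 and -0.08 and at -0.55 and 0.37. POLH, a translesion polymerase gene, had ratios of 0.29 and 0.14, while its 6 probe sets ranged from -0.37 to 0.75 in the mean of the pairs. Some of them changed sign between the pairs, such as the second brightest, at 0.51 with and -0.52 without Pontin siRNA.

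Of the metabolic genes, SESN2, which encodes a stress-responsive inhibitor of mTORC1, had signals of 58.4 with both knockdowns, 48.4 with p53 shRNA and 43.5 with Pontin siRNA, against 42.3 with control shRNA. Its p53 ratios were 0.42 with and 0.19 without Pontin siRNA, and its second probe set was above 0 as well, at 0.12 and 0.42. SESN1, its paralog, was at -0.32 and 0.04, and TIGAR, a fructose-bisphosphatase gene that lowers glycolytic flux, at -0.03 and -0.18. SPATA18, a mitochondrial quality control gene, had signals from 1.1 to 5.7 and stayed below the filter.

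ZMAT3 was lower with p53 shRNA on every probe set. On its brightest the signal was 350.6 with both knockdowns, 178.0 with p53 shRNA and 417.0 with Pontin siRNA, against 306.4 with control shRNA. The p53 shRNA array was the lowest and the Pontin siRNA array the highest. The p53 log2 ratio was -0.25 with Pontin siRNA and -0.78 without it, a mean of -0.52. The 4 other probe sets of the gene, which query the same RNA samples and are not replicates, gave -0.42 and -0.47, -0.28 and -0.19, -0.23 and -0.22, and -0.42 and -0.70, each with Pontin siRNA first. Among 479 genes with at least 5 probe sets above the filter, 2.09% had every one of them below 0 in both p53 pairs. Agreement of probe sets was chosen as a measure after the ZMAT3 values were seen; 1.67% of these genes had every one above 0.

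**Figure D2:**
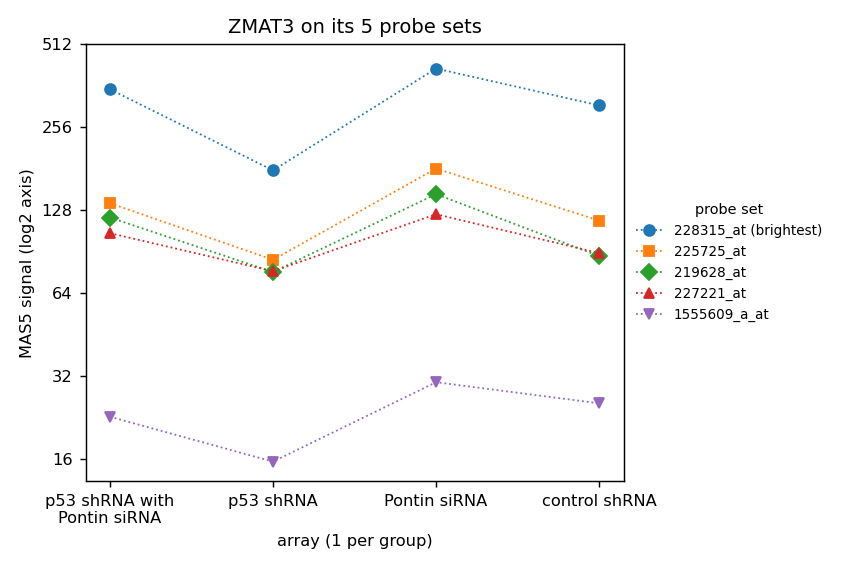
MAS5 signal of ZMAT3 (log2 axis) on each of its 5 probe sets across the 4 arrays, 1 per group. Dotted lines join values of 1 probe set, and on each of the 5 the p53 shRNA array is the lowest and the Pontin siRNA array the highest.

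The same measure singled out few other members. Of 12 members with at least 2 probe sets above the filter, SESN2, PHLDA3 and PERP had all of them above 0 in both p53 pairs (3 of 12, against 8.75% of 6025 genes), and ZMAT3 all below 0 (1 of 12, against 9.68%). For Pontin siRNA, BAX, SESN2 and ZMAT3 had all of them above 0 (3 of 12, against 11.5%) and PERP all below 0 (1 of 12, against 9.58%).

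With Pontin siRNA no member was called either. Of the 28 kept 0 passed, against 2.4% of all genes kept (290 of 12066, with 1.16% higher and 1.24% lower), and of the bright members 0, against 1.28% of bright genes (0.181% higher and 1.1% lower). The median of the mean Pontin ratios was -0.0079 over members and 0.0098 over all genes kept, with 13 members above and 15 below 0. The median size regardless of sign was 0.13 for members and 0.15 for all genes kept. In both pairs 8 members were above 0 (28.6%, against 33.9% of genes kept) and 7 below (25%, against 32%), and 13 had opposite signs in the pairs (46.4%, against 33.9%). Taken singly, the ratio in p53 shRNA cells reached 1.5-fold for ZMAT3 alone (1 of 28, against 11.8% of genes kept), and the ratio in control shRNA cells for FAS alone (1 of 28, against 8.15%).

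ZMAT3 had the highest mean Pontin ratio of the members, 0.71, with 0.98 in p53 shRNA cells and 0.44 in control shRNA cells. Its 4 other probe sets gave 0.68 and 0.63, 0.66 and 0.75, 0.46 and 0.47, and 0.54 and 0.25, so each was above 0 in both pairs, as was the case for 2.3% of the 479 genes with at least 5 probe sets. The first and second of these 4 passed 1.5-fold in both pairs, while the brightest, which the rule uses, did not. At 1.3-fold ZMAT3 was the only member higher in both pairs, where 3.56% of genes kept were (7.09% in either direction). CDKN1A followed at 0.20 in p53 shRNA cells and 0.42 in control shRNA cells, then TNFRSF10B at 0.48 and 0.11, whose other probe sets gave 0.54 and 0.26, and -0.96 and 0.08. BAX was at 0.21 and 0.13, and TP53INP1, with signals of 140.5 with both knockdowns, 118.6 with p53 shRNA and 134.7 with Pontin siRNA, against 113.7 with control shRNA, was at 0.24 in each pair. For APAF1 the brightest probe set gave 0.21 and 0.32 and the next one -0.83 and -0.17.

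On the lower side, RRM2B had ratios of similar size in the 2 pairs. Its signals were 248.2 with both knockdowns, 326.0 with p53 shRNA and 247.4 with Pontin siRNA, against 330.9 with control shRNA. Both arrays with Pontin siRNA lay below both without it, with log2 ratios of -0.39 in p53 shRNA cells and -0.42 in control shRNA cells. That is past 1.3-fold in both pairs, as were FAS among members and 3.52% of all genes kept on the lower side. FAS was at -0.47 and -0.67, with the low signals given above and 0.19 as the mean over its probe sets, XPC at -0.49 and 0.05, and PLK2 at -0.19 and -0.21. PLK2 had signals of 322.4 with both, 366.7 with p53 shRNA and 378.7 with Pontin siRNA, against 438.2 with control shRNA. PMAIP1 (0.22 and -0.16), GADD45A (-0.09 and 0.19), DDB2 (-0.23 and 0.09) and CCNG1 (-0.02 and 0.10) had opposite signs in the 2 pairs.

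**Figure D3:**
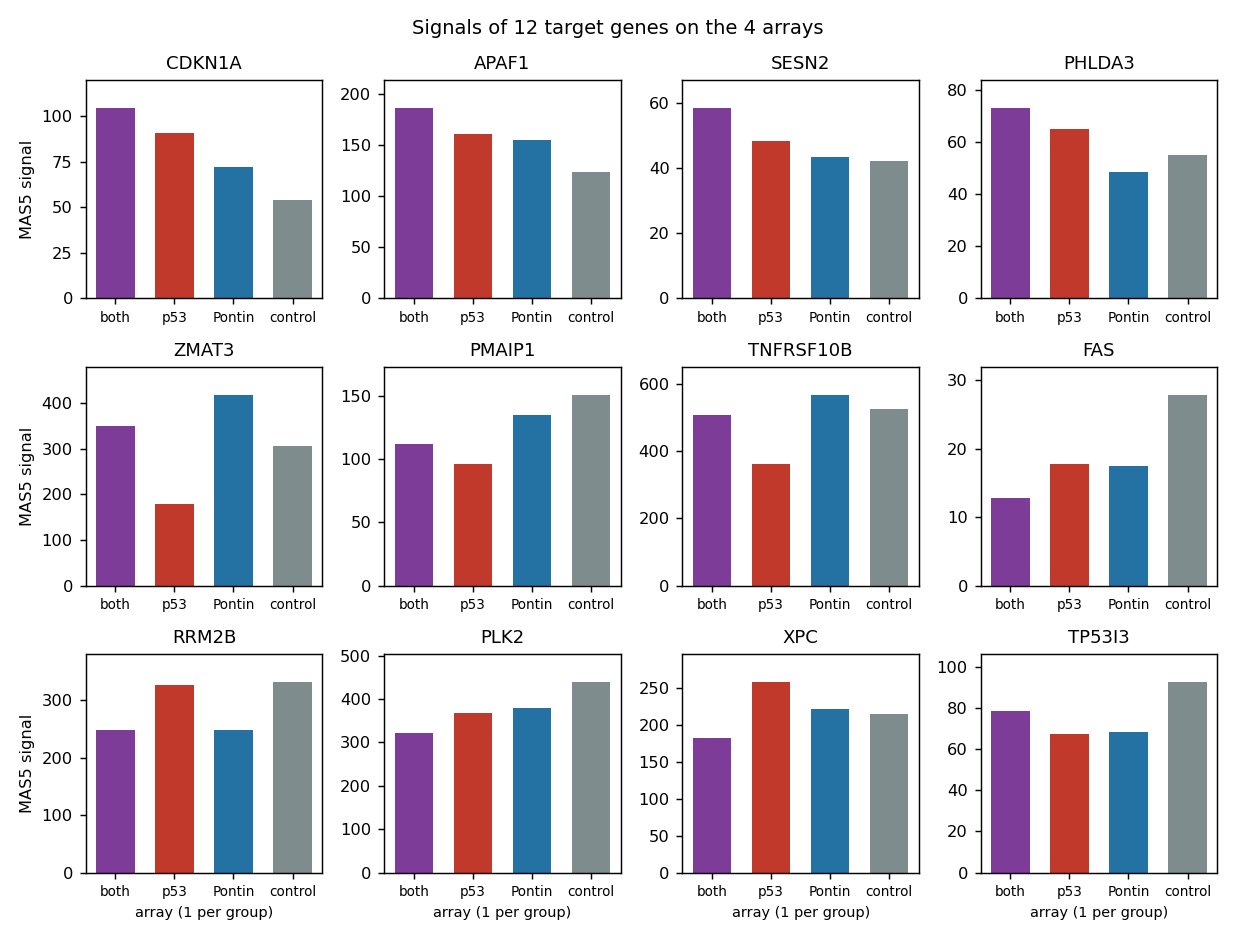
MAS5 signal (bars, linear axes from 0, a scale of its own for each gene) of 12 members on the 4 arrays, from left to right both knockdowns, p53 shRNA, Pontin siRNA and control shRNA, with 1 array per group and no error bars. CDKN1A, APAF1, SESN2 and PHLDA3 are highest with both knockdowns. ZMAT3, PMAIP1, TNFRSF10B and TP53I3 are lowest with p53 shRNA alone, and RRM2B is lower on both arrays with Pontin siRNA. Bars show the brightest probe set, and the next APAF1 probe set was lowest with both knockdowns.

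**Figure D4:**
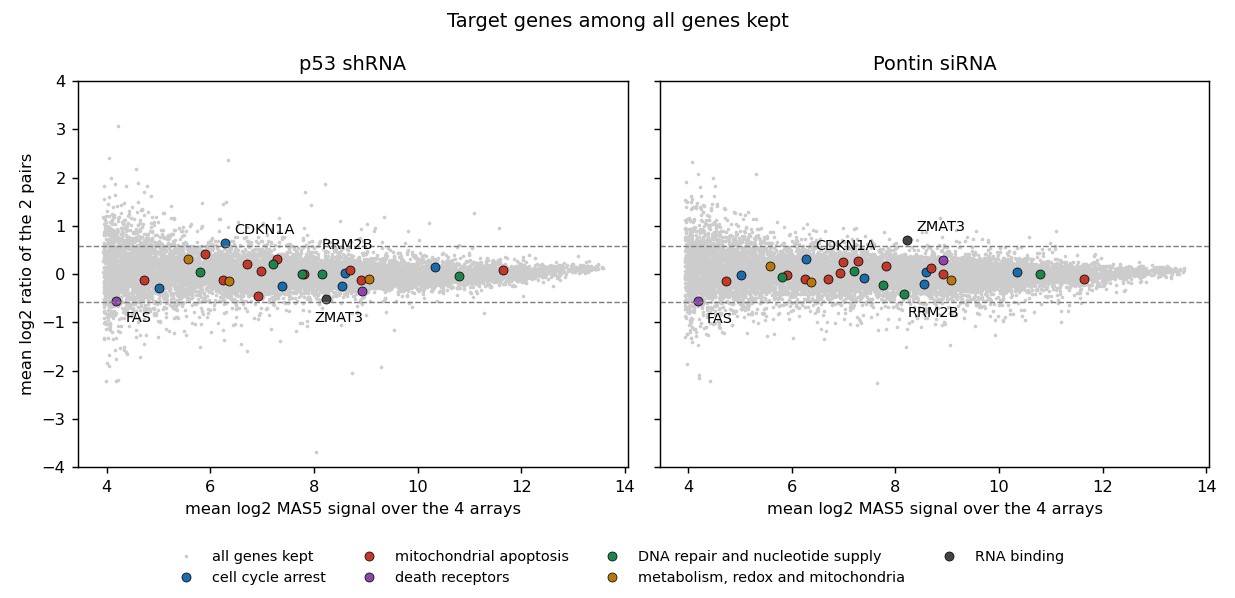
Mean log2 ratio of the 2 pairs (y axis) against mean log2 signal (x axis) for all 12066 genes kept (grey) and the 28 members (coloured by role), for p53 shRNA on the left and Pontin siRNA on the right, with dashed lines at 1.5-fold. Most members lie within the grey band at their own signal, and CDKN1A with p53 shRNA and ZMAT3 with Pontin siRNA are the members beyond a dashed line.

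In cells with both knockdowns against control shRNA cells, 3 of 28 members were at least 1.5-fold apart (10.7%, against 13.2% of genes kept). CDKN1A was 1.94-fold and APAF1 1.5-fold higher (2 of 28, against 7.49% of genes kept), and FAS was 2.17-fold lower (1 of 28, against 5.74%). The next APAF1 probe set, also above the filter, went the other way, at -0.89 in log2. The FAS signals behind its ratio were low, 12.8 with both knockdowns and 27.8 with control shRNA. Each ratio compares 1 array with 1 array, and hybridization controls were 1.42 times as bright with both knockdowns. The median over members was -0.036 in log2. ZMAT3, whose ratios for the single knockdowns had opposite signs, was at 0.19, and RRM2B at -0.41.

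The departure from additivity is the log2 ratio of both knockdowns over control minus the sum of the 2 single ratios, and equals the difference between the 2 pairs of either knockdown. It reached 1.5-fold for 1 of 28 members (3.57%, against 13.1% of genes kept), TP53I3 at 0.66, which was not past it after median centring of the arrays or with a pseudocount of 16. AEN followed at 0.57, XPC at -0.54 and ZMAT3 at 0.53, while CDKN1A was at -0.22, RRM2B at 0.03 and TP53INP1 near 0. The median departure regardless of sign was 0.18 for members and 0.17 for all genes kept. RUVBL1 itself departed by -0.69, so the depth of Pontin depletion was not equal in the 2 backgrounds. With 1 array per group, noise of single arrays, unequal depletion and interaction between the knockdowns cannot be told apart.

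**Figure D5:**
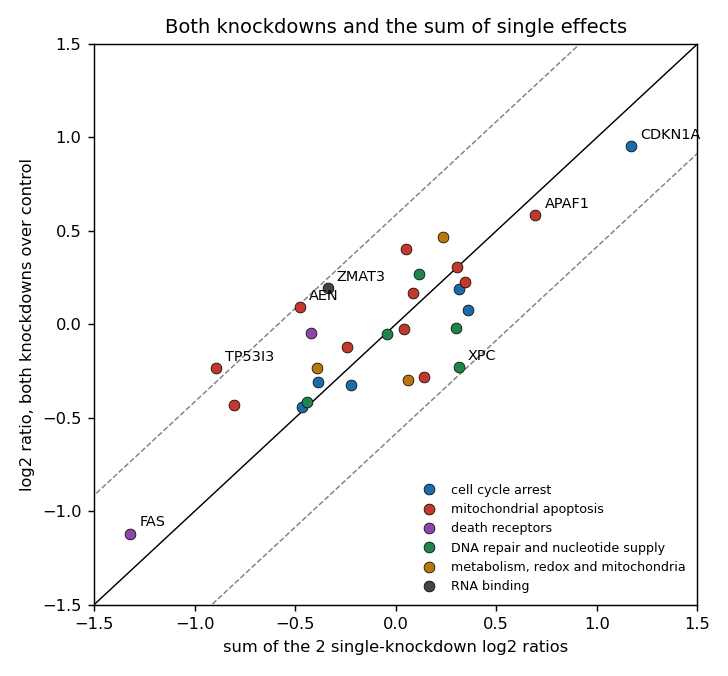
Log2 ratio of both knockdowns over control (y axis) against the sum of the 2 single-knockdown log2 ratios (x axis) for the 28 members. The solid line is additivity and the dashed lines are 1.5-fold from it; TP53I3 is the one member outside, and since both axes share the control array their agreement is no result.

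Further genes of the pathway were taken from 3 lists. Of 30 kept genes among 36 further reported p53 targets, 1 was called higher and 1 lower with p53 shRNA, against 1.38% and 0.862% of genes kept. With Pontin siRNA 0 were called higher and 2 lower, against 1.16% and 1.24% of genes kept. The medians were -0.015 with p53 shRNA and 0.059 with Pontin siRNA. GDF15, which encodes a stress-induced cytokine, had signals of 69.4 with both knockdowns, 46.3 with p53 shRNA and 30.1 with Pontin siRNA, against 21.2 with control shRNA. Its p53 log2 ratios were 1.21 with and 1.13 without Pontin siRNA, against 1.38% of genes kept called higher, and it was not bright. SLC12A4, a potassium-chloride cotransporter gene, was lower at -0.61 in each pair, with signals from 23.2 to 39.8. Lower with Pontin siRNA were AIFM2, the gene of the ferroptosis suppressor FSP1, at -1.24 in p53 shRNA and -0.87 in control shRNA cells, and BLOC1S2, a lysosome-related organelle complex gene, at -1.17 and -0.69, where 1.1% of bright genes were called lower.

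Of 19 kept p53 regulators and cofactors, 0 were called with p53 shRNA, against 2.25% of genes kept. With Pontin siRNA 1 was called, against 2.4% of genes kept. HIPK2, a kinase gene whose product phosphorylates p53, had signals of 158.6 with both knockdowns, 94.8 with p53 shRNA and 215.4 with Pontin siRNA, against 139.0 with control shRNA. It was called higher with Pontin siRNA (0.74 in p53 shRNA and 0.63 in control shRNA cells, against 0.181% of bright genes) and had p53 ratios of -0.44 and -0.55. As for ZMAT3, its p53 shRNA array was the lowest and its Pontin siRNA array the highest. TNFRSF10B had the same order, as did other genes of these lists, and the share of all genes with it was not counted. Of 12 genes that p21 and the DREAM complex repress, 0 were called for either knockdown, against the 2.25% and 2.4% of genes kept. Their median was -0.055 with p53 shRNA, with 9 of 12 means below 0, against 6098 of 12066 genes kept. With Pontin siRNA their median was 0.075, with 9 of 12 means above 0, against 6245 of 12066 genes kept. Whether this list differs from all genes was not tested.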

How the data were processed

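Per the labels' protocols, 200 ng of total RNA per array was labelled. Per the submitters' processing notes, the deposited intensity values were made with MAS5 (linear scale, no version given). Trimmed by 2% at each end, every array averaged 150.0. Of 54675 probe sets, 41091 carried 1 gene symbol, 1801 several and 11783 none, the 62 control probe sets included. Symbols were updated through Entrez identifiers, of which 41037 matched. Signals were taken to log2 without further normalization, with the 14 signals of 0 set to 0.1. A gene was kept where its brightest probe set reached, in its mean over arrays, the median over non-control probe sets.

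With 1 array per group the calls rest on size and not on a test. Normalization, a pseudocount of 16, the filter, the probe set rule, folds of 1.3 and 2 and a limma 3.58.1 fit (R 4.3.3) that takes the pairs as replicates were alternatives. The call rule and the fit were tested on simulated data. Members and lists were chosen with earlier results of these data known. Values were given in full for members called, for bright members at least 1.5-fold in any pair, for the 3 highest and 3 lowest mean ratios per knockdown, and for textbook targets; others given in full were chosen after their values were seen. Python 3.11.15 with pandas 2.3.3 was used.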

Additional observations from a re-analysis of the deposited data

Results flagged for a closer look

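TP53I3 had opposite signs in the 2 pairs of each knockdown and a difference between the pairs of 0.66 in log2, past 1.5-fold. A difference of at least 1.5-fold was found for 13.1% of genes kept. By construction it is the same quantity for either knockdown, so it counts once. With p53 shRNA the ratio was 0.20 with Pontin siRNA and -0.46 without it. With Pontin siRNA it was 0.23 in p53 shRNA cells and -0.43 in control shRNA cells. The difference was not tested, since each group has 1 array, and it rests on a single probe set whose control shRNA signal, 92.4, was the highest of the 4. It was not past 1.5-fold after median centring or with a pseudocount of 16.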

How the results depend on the processing

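Among all genes kept there were 271 calls for p53 shRNA, and for Pontin siRNA there were 290. These counts were 107 and 130 with a pseudocount of 16, 1900 and 1914 without a filter, 49 and 99 among bright genes, 728 and 855 at 1.3-fold, and 50 and 29 at 2-fold. The limma fit with the pairs as replicates, with 1 residual degree of freedom, called 0 and 0 genes after Benjamini-Hochberg adjustment. In that fit 1390 and 1737 genes had an unadjusted p under 0.05, which is 11.5% and 14.4% of genes kept. Among them were 5 and 3 of the 28 members kept. For p53 shRNA 167 calls were higher and 104 lower, and for Pontin siRNA 140 were higher and 150 lower. The same splits were 124 and 135, and 75 and 189, after quantile normalization, 127 and 132, and 77 and 188, after cyclic loess, and 99 and 179, and 54 and 251, after median centring. After median centring the median of all genes stood at -0.13 for p53 shRNA, -0.16 for Pontin siRNA and -0.30 for both over control, against -0.0024, 0.0098 and 0.0060 as reported.

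The count of members called, 0 for each knockdown, became 1 for each (FAS) after quantile normalization, cyclic loess and median centring. It became 1 for Pontin siRNA without a filter (SPATA18), and 2 for p53 shRNA (CDKN1A and FAS) and 3 for Pontin siRNA (FAS, RRM2B and ZMAT3) at 1.3-fold. The member median with p53 shRNA was -0.135 after median centring and -0.090 without cross-hybridizing probe set types. With Pontin siRNA it was -0.18 after median centring, 0.034 among bright genes and 0.048 in the p53 shRNA pair alone. For both over control it was -0.34 after median centring, 0.076 with the mean over probe sets and -0.12 without cross-hybridizing types, where 17 members remained. Members at least 1.5-fold from additivity, 1 as reported (TP53I3), numbered 3 after quantile normalization (TP53I3, AEN and TP53I11), 2 without a filter (TP53I3 and SPATA18) and 2 with the mean over probe sets (TP53I3 and PPM1D). TP53I3 was not among the 3 after median centring (SESN1, XPC and TP53I11) or the 1 without cross-hybridizing types (RPS27L), a setting that leaves out the only TP53I3 probe set. There were 0 with the pseudocount and 0 among bright genes, where TP53I3 is not included. The share of all genes at least 1.5-fold from additivity is given only as reported, 13.1% of genes kept, and not for these settings. Causes were not tested. Of 190 mean ratios of named members under alternatives, 15 had the other sign than as reported. Many of these 190 could not differ from the reported value. A changed filter leaves a gene's ratio as it was. A changed probe set rule does so where it uses the same probe set. FAS with Pontin siRNA was 0.19 with the mean over probe sets and 1.01 without cross-hybridizing types.

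No fit with replicate numbers as a block was run, since the labels carry none and each group has 1 array; the pairs used here are matched by treatment. Low signals limit what can be read for FAS, EDA2R and SPATA18, and also for TP53I11 (22.4 to 28.7) and PLK3 (29.0 to 36.6).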
